A study of Homo sapiens with 8 samples.

Results

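The genes of the interleukin-1 (IL-1) family and its receptors were examined in the M1-M4 series of human mammary epithelial cell lines grown as 3D acini. The 10 genes were chosen by name: the ligands and antagonists IL1A, IL1B, IL1RN, IL36G, IL36RN, IL18 and IL33, and the receptor genes IL1R1, IL1R2 and IL1RAP. Earlier results of these data were known when they were chosen. The shares of all tested genes set beside their counts are therefore a description and not a test. All 10 were found among the 56632 genes of the count table, and 9 passed the filter on low counts that left 18431 genes for testing. M1 is MCF10A, a non-tumorigenic line. M2 is MCF10AT1k.cl2, which carries an activated HRAS and was selected as a xenograft in mice. Carcinomas that M2 cells formed as xenografts gave rise to M3, which is MCF10Ca1h, and to M4, which is MCF10CA1a.cl1, so M2, M3 and M4 share the HRAS transgene. Each line was represented by 2 libraries of poly A+ RNA, taken after 8 days in Matrigel in medium with 2% horse serum. The medium of M1 and M2 held EGF at 10 ng/ml and that of M3 and M4 held none, so the step from M2 to M3 and the step in EGF cannot be told apart. Each stage is represented by a single line, so the spread between libraries is that within a line and not that between tumors.

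IL-1α and IL-1β are the founding ligands of the family. Both bind the receptor IL1R1, which then recruits the shared accessory chain IL1RAP, and the complex signals through MYD88 and IRAK kinases to NF-κB and AP-1. The pathway is checked by IL1RN, an antagonist that occupies IL1R1 without recruiting IL1RAP, and by IL1R2, a decoy receptor. IL-36γ acts on a related receptor and is opposed by the antagonist IL36RN. IL-18 and IL-33 have receptors of their own, and IL-33 is held in the nucleus of epithelial cells until the cells are damaged. IL-1β and IL-18 are made as precursors that caspase-1 cleaves in inflammasomes, whereas IL-1α is cut by calpains.

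The libraries held 69669970 to 107350344 counts, and levels are given as CPM, counts scaled to the library size, after TMM scaling. The replicates of M1, M3 and M4 differed from each other more than those of M2, with coefficients of variation of 0.377, 0.307 and 0.271 against 0.0574. The M2 libraries still differed by more than sampling noise, with a chi-square of 6.65 per degree of freedom, and were kept as 2 replicates. In the study's own expression table, the column for M1 replicate 2 matches the library labelled M2 replicate 1 and the reverse. The sample labels were followed here, and each call on the 10 genes that depends on this choice is given with both, as is each statement that M1 and M2 did not overlap. HRAS, the gene introduced into M2, was at 154.1 and 138.7 CPM for M1, 159.8 and 153.5 for M2, 269.3 and 327.1 for M3, and 335.2 and 352.4 for M4. All 10 epithelial markers (keratins, CDH1, EPCAM, ITGB4, LAMB3 and TP63) were present in every library, with a summed level of 10588 to 17442 CPM.

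The 3 most abundant genes of the IL-1 ligand cluster on chromosome 2 are IL1A, IL1B and IL1RN, and their proximal promoters are shown because their transcripts were all highest in M4. The windows are from RefSeq on GRCh38.p14, run from 250 bases before to 50 after an annotated start, and were available for 9 of the 10 genes, IL18 being the exception. Capitals mark matches to TGANTCA, the binding sequence of AP-1, one of the factors downstream of the IL-1 receptor.
IL1A promoter, chr2:112784351-112784650, minus strand: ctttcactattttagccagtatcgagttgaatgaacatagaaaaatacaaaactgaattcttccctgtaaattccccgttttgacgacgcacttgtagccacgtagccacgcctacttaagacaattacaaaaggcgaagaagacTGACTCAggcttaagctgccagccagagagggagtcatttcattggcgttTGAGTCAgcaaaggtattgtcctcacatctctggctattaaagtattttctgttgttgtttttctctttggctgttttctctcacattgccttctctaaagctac
IL1B promoter, chr2:112836730-112837029, minus strand: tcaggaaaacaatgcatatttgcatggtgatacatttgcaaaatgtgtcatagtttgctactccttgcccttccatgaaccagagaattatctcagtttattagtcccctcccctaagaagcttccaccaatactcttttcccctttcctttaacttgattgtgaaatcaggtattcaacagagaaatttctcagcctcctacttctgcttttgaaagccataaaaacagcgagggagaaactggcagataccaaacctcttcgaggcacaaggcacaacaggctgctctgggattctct
IL1RN promoter, chr2:113117721-113118020, plus strand: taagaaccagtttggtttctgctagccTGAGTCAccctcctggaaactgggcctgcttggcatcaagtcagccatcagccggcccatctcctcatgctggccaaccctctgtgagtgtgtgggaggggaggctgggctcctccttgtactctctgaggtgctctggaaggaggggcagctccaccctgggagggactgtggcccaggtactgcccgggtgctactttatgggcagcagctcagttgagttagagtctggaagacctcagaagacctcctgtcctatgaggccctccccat
The IL1A window shown held 2 such matches, TGACTCA beginning 105 bases and TGAGTCA beginning 55 bases before the start. In the window at another annotated start of IL1A, the same sites began 12 bases before and 38 bases after that start. The IL1RN window shown held 1 match, TGAGTCA, 223 bases before the start, and the 2 windows at other annotated starts of IL1RN held 0. The IL1B window held none within these letters. Of all 35116 promoter windows of this length, 7.71% held the motif on either strand. A match to the NF-κB consensus was found in 1 of 2 windows of IL1R2, in 1 of 2 windows of IL36RN and in 11.3% of all windows.

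The lines were compared in all 6 pairs with edgeR's quasi-likelihood test, and a call required a log2 fold change above 1 in size and a Benjamini-Hochberg adjusted p under 0.05. Between M2 and M1, 0 of the 9 tested genes were called, against 3.37% of all tested genes, and 3 had an unadjusted p under 0.05. DESeq2 called 2 in that comparison. The 3.37% applies to neither of these counts, and the share of all genes under the same criteria was not taken. M3 differed from M1 in 5 of the 9, against 13.5% of all tested genes. The 3 higher genes were IL1A, IL1B and IL1RAP, against a background of 8.02%, and the 2 lower genes were IL1R1 and IL33, against 5.51%. In M4 against M1, 6 were called, against 20.7% of all tested genes. IL1A, IL1B, IL1RN and IL36RN were higher (4 genes, background 9.48%) and IL1R1 and IL33 lower (2 genes, background 11.2%). IL36RN passed the filter only through its level in M4 so its calls in M4 are no support for a statement on the group.
Between M3 and M2, 4 of 9 were called against a background of 4.15%, with 2 higher (IL1B and IL1RAP, background 2.95%) and 2 lower (IL1R1 and IL33, background 1.2%). M4 and M2 differed in 6 of 9, against 13.9%, with 4 higher (IL1A, IL1B, IL1RN and IL36RN, background 6.98%) and 2 lower (IL1R1 and IL33, background 6.94%). M4 and M3 differed in 5 of 9, against 10.3%, with 3 higher (IL1B, IL1RN and IL36RN, background 3.99%) and 2 lower (IL1R1 and IL1RAP, background 6.3%). Comparisons with M1 share the M1 libraries and are not independent of each other. Within a line, less RNA per cell and fewer cells making it cannot be told apart in bulk RNA.

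**Figure D1:**
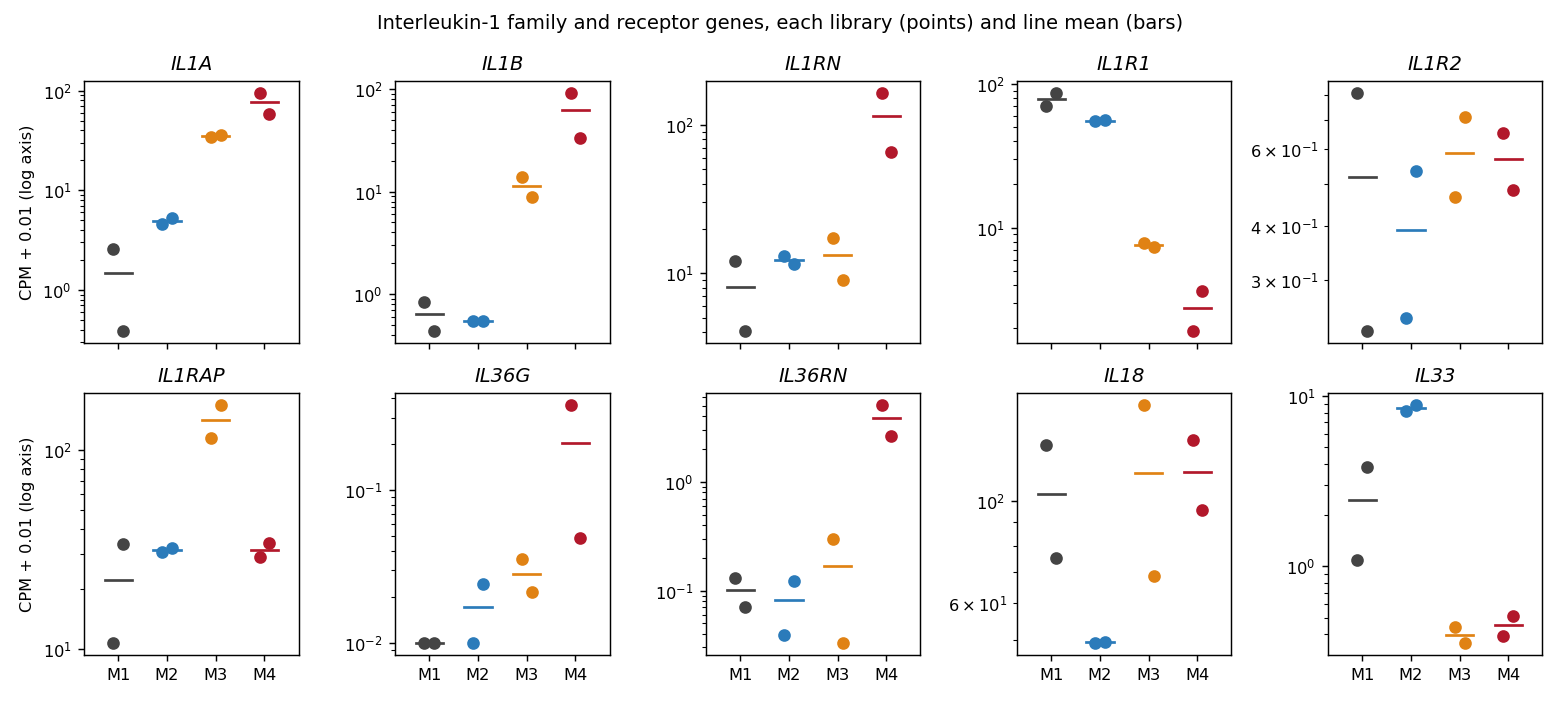
Levels of the 10 genes in each library on log axes (CPM with 0.01 added). Points are the 2 libraries of a line and bars their mean. IL1A and IL1B are higher in M3 and M4 than in M1, IL1R1 is lower in the same lines, and both M4 libraries of IL1RN and IL36RN lie above the 6 others.

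IL1A, which encodes IL-1α, was at 2.59 and 0.378 CPM for M1, 4.55 and 5.26 for M2, 33.9 and 35.9 for M3, and 94.6 and 58.7 for M4. With the labels followed, the libraries of the 4 lines did not overlap, and the order of the levels was M1, M2, M3 and M4. With the study's library assignment M1 would be at 2.59 and 4.55 CPM and M2 at 0.378 and 5.26, which overlap. IL1A (ENSG00000115008) lies on the minus strand of chromosome 2, from 113531502 to 113542070 in GRCh37. Its log2 fold change against M1 was 4.55 in M3 (SE 0.74, adjusted p = 0.00711 from edgeR) and 5.69 in M4 (SE 0.78, adjusted p = 0.00237 from edgeR). Against M2, the change of 3.97 in M4 was called (SE 0.71, adjusted p = 0.00935 from edgeR), whereas the 2.83 in M3 was not (adjusted p = 0.0598). The changes of M2 against M1 (1.72, adjusted p = 0.191) and of M4 against M3 (1.14, 0.255) were also not called by edgeR. In fits of only the 2 lines compared, edgeR called M3 against M2 (2.83, adjusted p = 0.00634) and M4 against M3 (1.16, 0.0354). DESeq2 called M3 against M2 (2.83, 0.0168). Without the filter on low counts, edgeR called IL1A in M2 against M1, M3 against M2 and M4 against M3. The changes in that fit (1.73, 2.83 and 1.13) were near those of the main fit. Its adjusted p from edgeR were far lower, at 9.46e-12, 2.17e-32 and 3.36e-06. As the changes hardly moved, these calls are no further support.
The size of the IL1A change differed between the M1 libraries. Without M1 replicate 1 it was 6.53 in M3 and 7.68 in M4, and without M1 replicate 2 it was 3.76 and 4.89. With the study's library assignment the M3 change was 3.29 and was no longer called (adjusted p = 0.147 from edgeR), as also in a fit of M1 and M3 alone (0.0637), and the M4 change was 4.42 (0.0360). The M4 call against M2 was lost without M2 replicate 1 (0.115) or M2 replicate 2 (0.105). IL1A was also called in M2 against M1 without M1 replicate 1 (3.69, adjusted p = 0.0144). Without M1 replicate 1 or M1 replicate 2 it was called in M3 against M2 (0.00220 and 0.00191) and in M4 against M3 (0.0187 and 0.0177).

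IL1B encodes IL-1β, the ligand whose precursor caspase-1 cleaves. Its level was 0.834 and 0.427 CPM for M1 and 0.540 CPM for each M2 library. It reached 13.7 and 8.85 CPM for M3 and 91.7 and 33.6 CPM for M4. M1 and M2 overlapped, and M3 and M4 each lay above all libraries of the earlier lines. IL1B (ENSG00000125538) lies on the minus strand of chromosome 2, from 113587328 to 113594393. Its log2 fold change against M1 was 4.16 in M3 (SE 0.56, adjusted p = 0.00312 from edgeR) and 6.63 in M4 (SE 0.61, adjusted p = 0.000473 from edgeR). The difference of M2 from M1 was not called (-0.22, 95% interval -1.54 to 1.09). The rises against M2 were 4.38 in M3 (adjusted p = 0.00754 from edgeR) and 6.85 in M4 (0.000816), and M4 was higher than M3 by 2.47 (SE 0.49, adjusted p = 0.0173 from edgeR).
Both calls against M1 held in all 14 alternatives, with M4 replicate 1 moving the M4 change most, to 5.74 when left out. The M3 call against M2 was lost without M2 replicate 1 (0.113) or M2 replicate 2 (0.108), and the M4 call against M3 without M3 replicate 1 (0.0588), M3 replicate 2 (0.0813) or M4 replicate 1 (a change of 1.58, adjusted p = 0.0883).

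IL1RN, the receptor antagonist, rose in M4. Its level was 12.1 and 4.09 CPM for M1, 13.1 and 11.5 for M2, and 17.4 and 9.06 for M3. The M4 libraries were at 163.8 and 65.4 CPM, above all 6 others, while M1, M2 and M3 overlapped. IL1RN (ENSG00000136689) lies on the plus strand of chromosome 2, from 113856892 to 113891593. It was higher in M4 by 3.82 against M1 (SE 0.66, adjusted p = 0.00560 from edgeR), by 3.22 against M2 (0.0135) and by 3.12 against M3 (0.0201). Its M3 change against M1 was 0.71 (95% interval -0.70 to 2.11, adjusted p = 0.433).
The M4 call against M1 held in all 14 alternatives, with values from 3.02 without M4 replicate 1 to 4.83 without M1 replicate 1. The call against M2 was lost without M2 replicate 1 (0.123), M2 replicate 2 (0.133) or M4 replicate 1 (2.42, adjusted p = 0.0606), and the call against M3 without any one of the M2 or M3 libraries or M4 replicate 1 (2.31, with adjusted p from 0.0591 to 0.0925 over these 5).

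**Figure D2:**
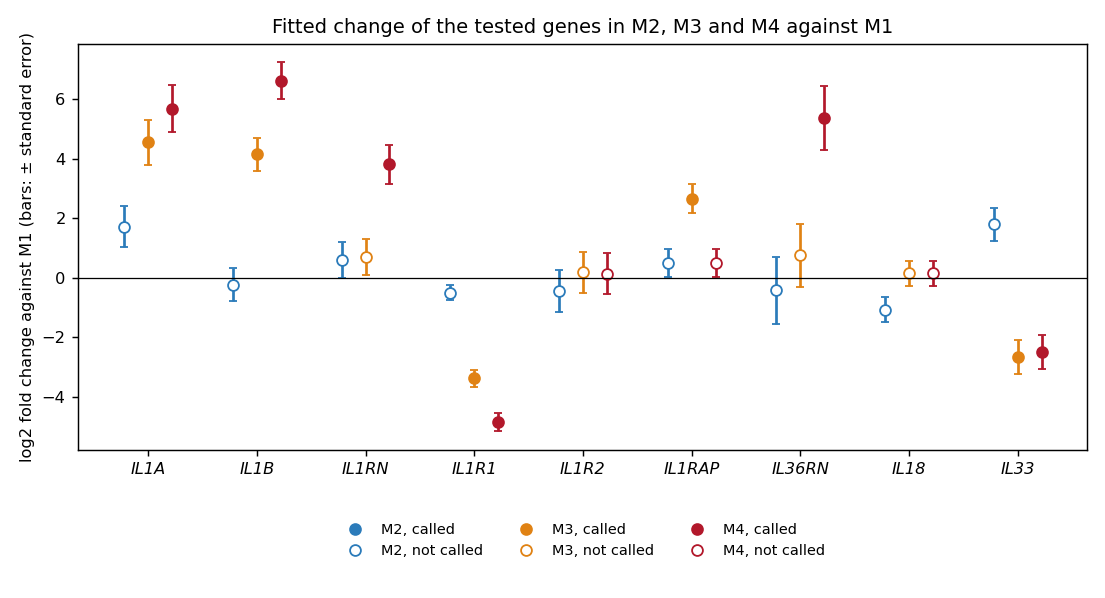
Fitted log2 fold changes against M1 of the 9 tested genes in M2, M3 and M4, with standard errors. Filled points are called (adjusted p under 0.05 and a change above 1 in size). No M2 point is filled. The largest rise is that of IL1B in M4 (6.63), and the largest fall is that of IL1R1 in M4 (-4.84).

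IL1R1, the signalling receptor for IL-1α and IL-1β, fell in M3 and M4. It was at 69.9 and 86.6 CPM for M1, 55.5 and 55.7 for M2, 7.87 and 7.28 for M3, and 1.90 and 3.60 for M4. With the labels followed, no lines overlapped, and the levels followed the order M1, M2, M3 and M4. Under the other library assignment M1 would be at 69.9 and 55.5 CPM and M2 at 86.6 and 55.7, so these lines would overlap, while M3 and M4 would stay below them. IL1R1 (ENSG00000115594) lies on the plus strand of chromosome 2, from 102681004 to 102796334. Against M1 its log2 fold change was -3.37 in M3 (SE 0.29, adjusted p = 0.000609 from edgeR) and -4.84 in M4 (SE 0.31, adjusted p = 0.000160 from edgeR), and these calls held in all 14 alternatives. In fold terms IL1R1 was 10.3 times lower in M3 and 28.6 times lower in M4. Against M2 its log2 fold change was -2.88 in M3 (0.00301) and -4.35 in M4 (0.000329), again in all 14 alternatives. The difference of M2 from M1 was not called (-0.49, 95% interval -1.10 to 0.12).
M4 was lower than M3, with a log2 fold change of -1.47 (SE 0.28, adjusted p = 0.0138 from edgeR). That call was lost without M3 replicate 1 (0.0555), in a fit of M3 and M4 alone (0.0582) and with the study's library assignment (0.0542).

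IL1RAP, the accessory chain shared by the receptors of IL-1, IL-36 and IL-33, was highest in M3. It was at 10.7 and 33.7 CPM for M1, 30.5 and 32.0 for M2, 114.6 and 167.9 for M3, and 28.9 and 34.0 for M4. M3 lay above the 6 other libraries, which overlapped. IL1RAP (ENSG00000196083) lies on the plus strand of chromosome 3, from 190231840 to 190377539. The M3 change was 2.67 against M1 (SE 0.49, adjusted p = 0.0108 from edgeR) and 2.18 against M2 (SE 0.48, adjusted p = 0.0473 from edgeR), and the change of M4 against M3 was -2.17 (SE 0.48, adjusted p = 0.0255 from edgeR). M4 and M2 differed by 0.01 (95% interval -1.08 to 1.10).
The call against M1 was lost in a fit of the 2 lines alone (0.0652), and leaving out M1 replicate 1 gave a change of 2.07 and leaving out M1 replicate 2 gave 3.73. Without M1 replicate 2, IL1RAP was also called higher in M2 (1.55, adjusted p = 0.0265 from edgeR) and M4 (1.55, 0.00849). The call against M2 was lost in 7 alternatives, namely without each library of M2, M3 or M4 and with the study's assignment (adjusted p from 0.0818 to 0.331), and the M4 call against M3 was lost without each library of M2, M3 or M4 (from 0.0562 to 0.140).
IL1R2, the decoy receptor, was low throughout. It was at 0.798 and 0.220 CPM for M1, 0.236 and 0.526 for M2, 0.455 and 0.700 for M3, and 0.643 and 0.474 for M4, with every pair of lines overlapping. It was called in none of the 6 comparisons, with a change of 0.14 in M4 against M1 (95% interval -1.47 to 1.74).

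The IL-36 genes were at the lower limit of detection outside M4. IL36RN, the IL-36 receptor antagonist, had 10 and 5 counts for M1, 3 and 8 for M2, 23 and 2 for M3, and 577 and 206 for M4. In CPM, M4 was at 5.09 and 2.64 and the other 6 libraries at 0.0231 to 0.291. IL36RN (ENSG00000136695) lies on the plus strand of chromosome 2, from 113816215 to 113822959. Its log2 fold change in M4 was 5.39 against M1 (SE 1.07, adjusted p = 0.00836 from edgeR), 5.80 against M2 (0.0101) and 4.63 against M3 (0.0226). The call against M1 held in all 14 alternatives. Those against M2 were lost without M2 replicate 1 (5.07, adjusted p = 0.0965), M2 replicate 2 (6.96, 0.0576) or M4 replicate 1 (0.0534). Those against M3 were lost without M4 replicate 1 (0.112), without M4 replicate 2 (0.0550) and with the study's assignment (0.0583), and the change was 7.30 without M3 replicate 1 and 3.72 without M3 replicate 2.
IL36G, which encodes the agonist IL-36γ, did not pass the filter and was not tested. Its counts were 0 for both M1 libraries, 0 and 1 for M2, 2 and 1 for M3, and 40 and 3 for M4. Most of its M4 reads came from replicate 1.

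IL18, whose product is stored as an inactive precursor, was called in no comparison by edgeR. It was at 132.2 and 75.1 CPM for M1, 49.2 and 49.5 for M2, 161.4 and 68.6 for M3, and 135.3 and 95.8 for M4. With the labels followed, the M2 libraries lay below the other 6, which overlapped. Under the study's assignment M1 would be at 132.2 and 49.2 CPM and M2 at 75.1 and 49.5, and M2 would not lie below the rest. IL18 (ENSG00000150782) lies on the minus strand of chromosome 11, from 112013976 to 112034819. The change of M2 from M1 was -1.07 (SE 0.42, adjusted p = 0.184 from edgeR), and that of M4 from M1 by 0.16 (95% interval -0.81 to 1.13). DESeq2 called IL18 lower in M2 than in M1 (-1.08, adjusted p = 0.0446) and higher in M3 than in M2 (1.22, 0.0219). Without the filter on low counts edgeR called both, with changes of -1.07 and 1.22 and adjusted p of 3.00e-06 and 3.41e-08. These changes were near those of the main fit, so the calls without the filter are no further support. The change of 1.23 in M4 against M2 (adjusted p = 0.0745) passed the threshold in 6 of 14 alternatives, including a block for the replicate number (0.0255) and the fits without M3 replicate 1 or M3 replicate 2 (0.0281 each).
IL33, the gene of the nuclear alarmin IL-33, fell in M3 and M4. It was at 1.08 and 3.81 CPM for M1, 8.13 and 8.86 for M2, 0.429 and 0.344 for M3, and 0.379 and 0.500 for M4. M2 lay above M1, and M3 and M4 overlapped below both. In the study's assignment M1 would be at 1.08 and 8.13 CPM and M2 at 3.81 and 8.86, which overlap. IL33 (ENSG00000137033) lies on the plus strand of chromosome 9, from 6215786 to 6257983. Against M2 its log2 fold change was -4.45 in M3 (SE 0.62, adjusted p = 0.00865 from edgeR) and -4.27 in M4 (SE 0.61, adjusted p = 0.00358 from edgeR). Against M1 the changes were -2.65 in M3 (0.0173) and -2.48 in M4 (0.0150), and the 1.80 in M2 was not called (0.104), although it was called by DESeq2 (0.00771) and without M1 replicate 2 (2.98, 0.0159).
The M4 call against M2 held in all 14 alternatives. The M3 call against M2 was lost without each M2 or M3 library (adjusted p up to 0.0636) and with the study's assignment (0.102). The calls against M1 were lost without each library of M3 (0.0669 and 0.0938) or M4 (0.0921 and 0.0701), in fits of 2 lines (0.0627 and 0.0575) and with the study's assignment (0.121 and 0.0599), and without M1 replicate 2 the changes were -1.47 in M3 and -1.30 in M4, against -3.29 and -3.10 without M1 replicate 1.

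Levels of different genes were compared per length, as TPM, in which counts are divided by transcript length before scaling. The summed TPM of the agonists IL1A and IL1B was below that of the antagonist IL1RN in M1 and M2 and above it in M3 and M4. The ratio was 0.259 and 0.196 for M1, 0.341 and 0.441 for M2, 2.54 and 4.45 for M3, and 1.12 and 1.34 for M4. It was highest in M3, where the TPM of IL1RN overlapped that of M2, and with the labels followed the 4 lines did not overlap in the ratio. The ratio under the study's assignment would be 0.259 and 0.341 for M1 and 0.196 and 0.441 for M2, which overlap. For the receptor chains, the ratio of IL1R1 to IL1RAP was 5.97 and 2.35 for M1, 1.66 and 1.60 for M2, 0.0629 and 0.0397 for M3, and 0.0604 and 0.0969 for M4. IL1R1 thus exceeded its accessory chain in M1 and M2 and was below it in M3 and M4, where the libraries overlapped. IL18 was the most abundant of 11 ligand-family genes in every library. It made up 92.7% and 93.9% of their summed TPM for M1, 76.8% and 77.3% for M2, 79.9% and 67.7% for M3, and 36.5% and 47.6% for M4. These ratios and shares were not tested. Counts are per gene, so transcripts from the different annotated starts of IL1RN are not told apart in them. An exact two-sided permutation test of 2 libraries against 2 cannot go below 0.333.

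**Figure D3:**
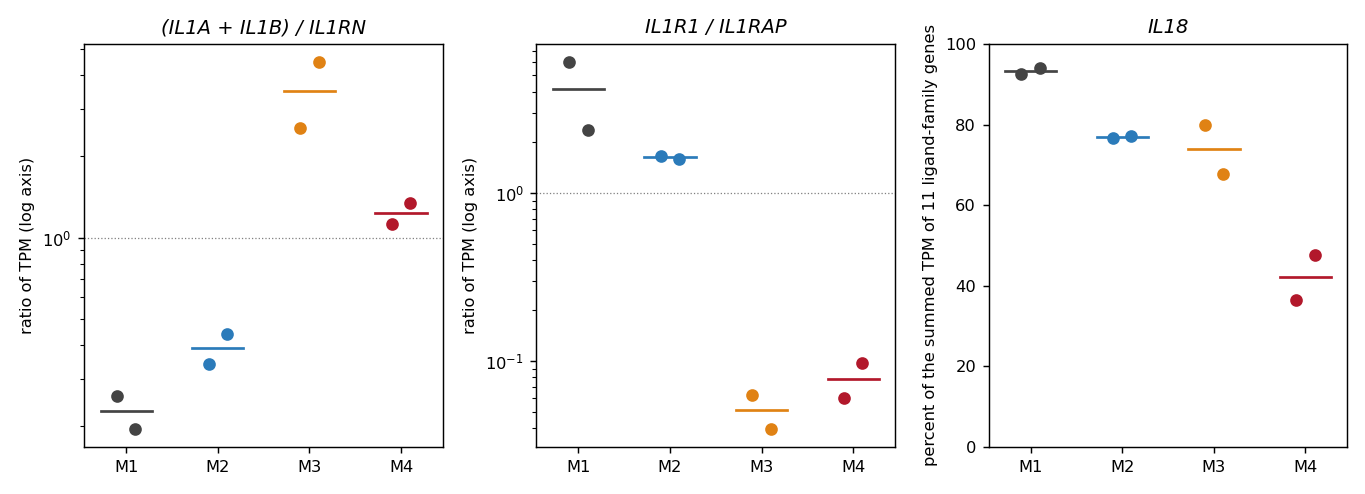
Ratios of TPM on log axes (left and middle; the dotted line marks a ratio of 1) and the IL18 percentage of the summed TPM of 11 ligand-family genes (right). Points are libraries and bars line means. Agonists exceed IL1RN in M3 and M4, IL1R1 exceeds IL1RAP in M1 and M2, and the IL18 share is lowest in M4.

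The IL-1 ligand cluster spans 9 genes and 360.1 kb of chromosome 2, from 113531502 to 113891593, in the order IL1A, IL1B, IL37, IL36G, IL36A, IL36B, IL36RN, IL1F10 and IL1RN. In 8 of the 9 genes both M4 libraries lay above the 6 others, against 15.5% of all tested genes, and in 0 both lay below (background 16.4%). Of these 8, IL1A, IL1B and IL1RN passed the filter in every line. IL37, IL36B and IL36RN passed it only through M4, and IL36G and IL1F10 were not tested, so the count over the cluster is a description and no support. The ninth, IL36A, had 6 counts in M4 replicate 1 and 0 in the other 7 libraries. IL37 counts were 0 and 2 for M1, 1 and 0 for M2, 2 and 13 for M3, and 114 and 17 for M4, so that M3 replicate 2 came close to M4 replicate 2. IL1F10 had counts only in M4 (16 and 2). IL36B, the gene of IL-36β, had 445 and 287 counts in M4, 1 in M3 replicate 1 and 0 in the other libraries. With 3 counts per library as the floor, IL36B was at least 104.3-fold higher in M4 than in M1 and 105.4-fold higher than in M2.
The receptor cluster runs from 102608422 to 103069025. Of its 6 genes, 1 had both M4 libraries above the others (IL1RL1, against 15.5% of all tested genes). In 2 both lay below (IL1R1 and IL1RL2, background 16.4%). IL1RL1 passed the filter only through M4, IL1RL2 only through M2 and M3, and IL18RAP was not tested. These counts are a description and no support. Counts of IL1RL2, the receptor of IL-36, were 5 and 39 for M1, 40 and 45 for M2, 17 and 23 for M3 and 0 for both M4 libraries. With the same floor, M4 was at least 8.26-fold below the mean of M1, 15.9-fold below that of M2 and 7.38-fold below that of M3. The value against M1 rests on replicate 2, because the 5 counts of replicate 1 were near the floor. IL1RL1, the receptor of IL-33, had 293 and 0 counts for M1, 21 and 5 for M2, 6 and 4 for M3, and 1283 and 313 for M4, and was not called against M1 (2.11, SE 1.57, adjusted p = 0.347 from edgeR). Its span overlaps that of IL18R1, so reads could be split between the genes.

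**Figure D4:**
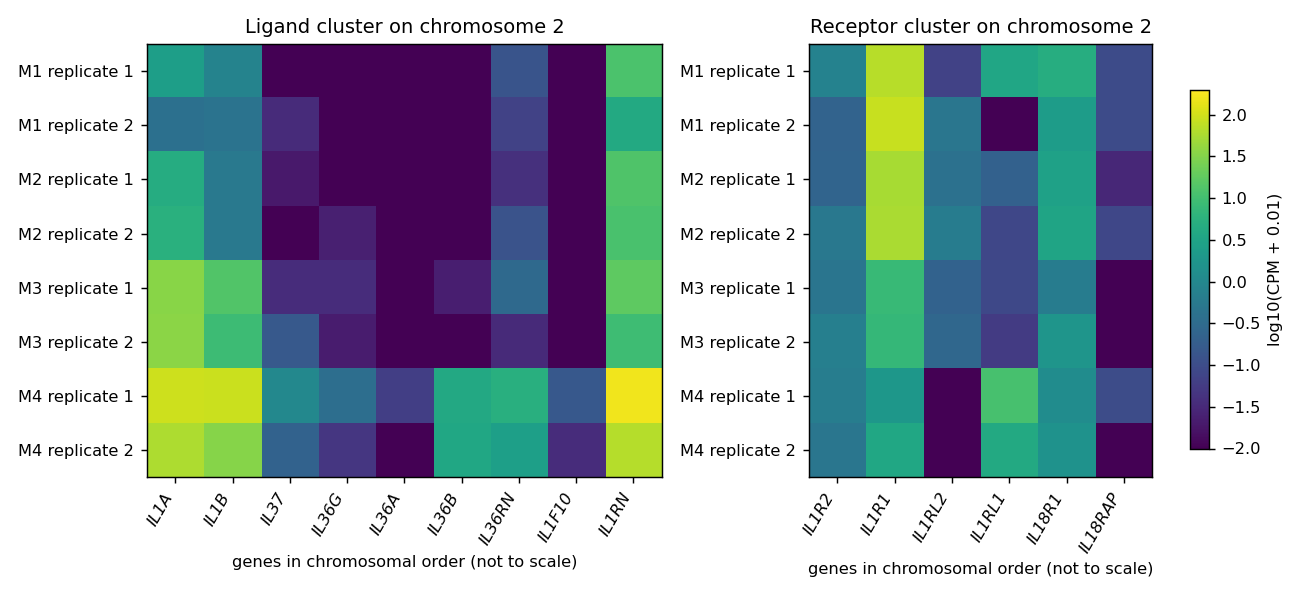
Levels of the genes of the ligand cluster (left) and receptor cluster (right) on chromosome 2, as log10(CPM + 0.01), with genes in chromosomal order and 1 row per library. The M4 rows are the brightest in 8 of 9 ligand genes, while IL1R1 and IL1RL2 are darkest in M4.

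Beyond the 10 genes, 12 further family members were listed and 9 were tested, of which 4 (IL36B, IL37, IL1RL1 and IL1RAPL1) passed the filter only through M4. Against M1, 0 rose and 1 fell in M2 (backgrounds 2.26% and 1.11%) and in M3 (8.02% and 5.51%), and 3 rose and 1 fell in M4 (9.48% and 11.2%). SIGIRR, an inhibitory receptor of the family, fell in M2 by 1.29 on the log2 scale (SE 0.23, adjusted p = 0.0234 from edgeR). IL18BP, the secreted IL-18 antagonist, fell in M3 by 1.78 (SE 0.41, adjusted p = 0.0208 from edgeR). In M4, IL36B, IL37 and IL1RAPL1 rose and IL1RL2 fell. All 3 that rose passed the filter only through M4, and IL1RL2 only through M2 and M3, so these calls are no support for a statement on the list. For the other settings that follow, the share of all genes called was not taken. The number called in M4 was 1 without M4 replicate 1, 2 without M4 replicate 2, without M1 replicate 2 or with M1 and M4 fitted alone, and 7 without the filter. In M2 and in M3 it was 0 with the study's library assignment, in M2 also 0 without either M2 library and 2 without M1 replicate 2, and in M3 0 without M1 replicate 1.
Genes of the signalling chain from MYD88 to NF-κB were counted in the same way. Of 16 listed genes, 14 were tested, and 0 were called in M2 or M3 against M1. The shares of all tested genes called were 3.37% in M2 and 13.5% in M3. In M4, 2 of the 14 rose and 0 fell, against 9.48% and 11.2% of all tested genes: IRAK2, a kinase of the receptor complex, from 2.62 and 3.67 CPM in M1 to 19.4 and 22.9 CPM in M4 (log2 fold change 2.75, SE 0.41, adjusted p = 0.00256 from edgeR), and TAB3, an adaptor of the kinase TAK1, by 1.69 (0.000685). Without M3 replicate 1 or M3 replicate 2, 1 gene was called in M2 and 1 in M3, and 1 in M3 without M1 replicate 1. For these fits the share of all genes called was not taken. The median change of the list in M4 was 0.28, against -0.02 for all tested genes.
Of 16 genes that process the ligands, 14 were tested. CAPN2, a calpain subunit, was higher in M3 (1.27, SE 0.14, adjusted p = 0.00133 from edgeR) and in M4 (1.16, 0.00101), with 304.3 and 304.2 CPM in M1 and 688.0 and 669.0 CPM in M4. It was the 1 gene of the 14 that rose in either line (backgrounds 8.02% in M3 and 9.48% in M4). In M3, 2 fell (background 5.51%), CARD18 (-3.49, 0.0319) and PYCARD (-1.06, 0.0409). In M4, 4 fell (background 11.2%), namely PYCARD, CTSS, CARD8 and CARD18. PYCARD passed the filter only through M1, M2 and M3, and CARD18 only through M1, M2 and M4. The PYCARD call in M4 and the CARD18 call in M3 are therefore no support for a statement on the list. PYCARD, the ASC adaptor that links inflammasome sensors to caspase-1, was at 44.4 and 50.5 CPM in M1 and had 0 counts in both M4 libraries, at least 1462-fold lower. CTSS, a lysosomal protease, fell in M4 by 3.72 on the log2 scale (0.00225). The level of CASP1 itself was 40.7 and 150.3 CPM for M1 and 119.7 and 121.0 CPM for M2. It was 35.6 and 37.4 CPM for M3 and 39.4 and 20.6 CPM for M4. CASP1 was not called between M1 and M4, and it was chosen after its values were seen. Shares of all genes called were not taken for the other settings that follow. With the study's library assignment 0 genes of this list were called in M3 and 3 in M4. The number in M3 was 1 without M1 replicate 2 or either M2 library and 6 without M1 replicate 1.

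NF-κB target genes were listed as a readout of the pathway, although many other signals also induce them. Of 24 genes, 23 were tested. In M2, 2 were higher and 0 lower than in M1, in M3 6 higher and 1 lower, and in M4 12 higher and 1 lower. The backgrounds in the higher direction were 2.26%, 8.02% and 9.48% of all tested genes, and in the lower direction 1.11%, 5.51% and 11.2%. The median log2 fold change of the list was 0.15 in M2, 1.53 in M3 and 1.63 in M4, against -0.04, -0.02 and -0.02 for all tested genes. CXCL8, a neutrophil chemokine, was at 1.11 and 1.95 CPM for M1, 5.65 and 4.72 for M2, 76.0 and 61.9 for M3, and 227.5 and 135.2 for M4, a change of 6.89 in M4 (SE 0.40, adjusted p = 0.000113 from edgeR). Counts of CSF2, the gene of GM-CSF, were 0 for M1, 7 and 10 for M2, 25 and 43 for M3, and 182 and 234 for M4, which is at least 63.2-fold higher in M4 than in M1. Those of IL6 were 0 for M1, 38 and 5 for M2, 4 and 2 for M3, and 127 and 41 for M4, at least 22.6-fold higher in M4 than in M1. In CPM, M2 replicate 1 of IL6 (0.373) was near M4 replicate 2 (0.525). CSF2 passed the filter only through M3 and M4 and IL6 only through M4, so their calls are no support for the count of targets. The genes that fell were TRAF1 in M3 (-2.70, 0.0222) and SAA2, an acute phase gene, in M4 (-1.73, 0.0445).
The inhibitor NFKBIA, an immediate target, was not called against M1 in any line. TNFAIP3, the A20 feedback inhibitor, was higher in M4 by 3.22 (SE 0.26, adjusted p = 0.000279 from edgeR), and ICAM1 was higher in M3 (5.30, 0.00248) and M4 (3.94, 0.00367). These 3 genes were chosen after their values were seen. For the other settings that follow, no share of all genes called was taken. The number of targets called in M2 was 0 with the study's library assignment, with M1 and M2 fitted alone or without either M2 library, and 1 without any one M3 or M4 library. In M3 it was 2 with that assignment and 13 without the filter on low counts, and in M4 it was 8 without M4 replicate 1 or with M1 and M4 fitted alone.

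**Figure D5:**
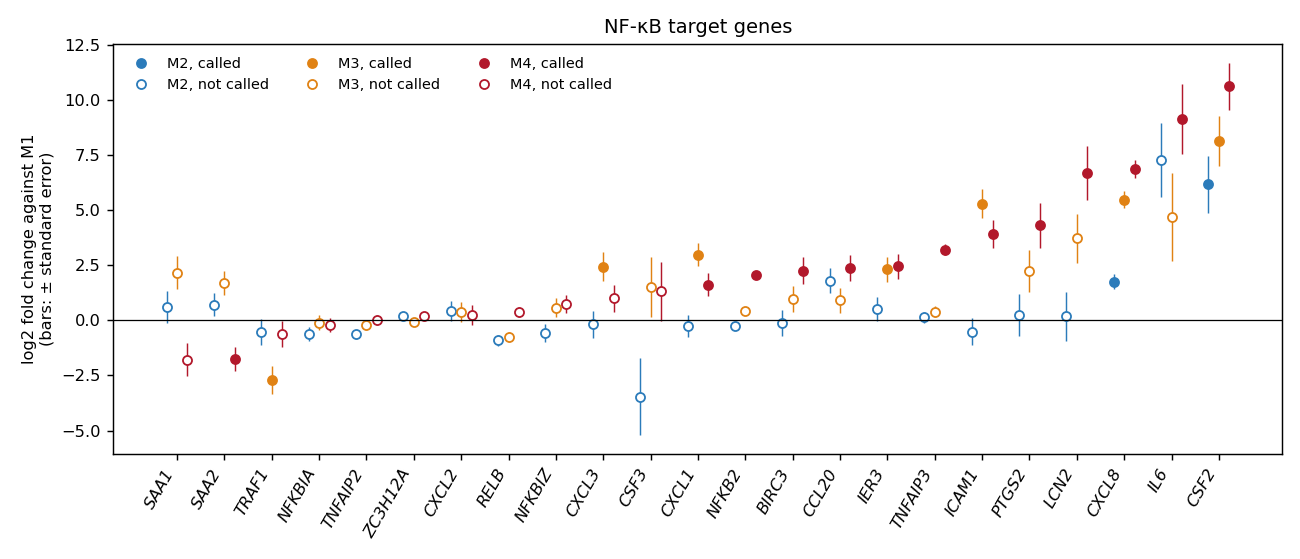
Fitted log2 fold changes against M1 of 23 NF-κB target genes in M2, M3 and M4, with standard errors, in order of the M4 change. Filled points are called. In M4, 12 are filled above 0 and 1 below, and the values for CSF2 and IL6 rest on 0 counts in M1 and are not bounds.

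Markers of other cell types were detected in part. The 9 leukocyte markers summed to 25.3 to 50.2 CPM in M1, 15.9 to 16.5 CPM in M2, 13.4 to 42.5 CPM in M3 and 66.0 to 74.4 CPM in M4. Their sum was highest in M4, near the level of IL1A there, and its part in the M4 results was not tested. Most of it was CD68, a lysosomal protein abundant in macrophages, at 51.4 and 39.0 CPM in M4, and the rest was mainly CSF1R. CD14 was highest in M1, at 24.6 and 14.3 CPM, and was at 2.03 and 1.06 CPM in M4. ITGAM was at 4.22 and 4.84 CPM in M1 and 0.934 and 1.36 CPM in M4, and LYZ did not exceed 38 counts in any library. PTPRC, the marker of all leukocytes, had 3 counts in M1 replicate 2 and 0 in the others. TYROBP of myeloid cells, CD3E of T cells and MS4A1 of B cells had 0 counts in all 8 libraries. The 7 stromal and endothelial markers that could be matched summed to 8.71 to 60.4 CPM in M1, 72.4 to 74.3 CPM in M2, 10.1 to 15.8 CPM in M3 and 6.57 to 7.89 CPM in M4. The M2 sum was mostly DCN, at 60.2 and 58.6 CPM, and was above the levels of IL1A and IL1B in M2, and its part in the results was not tested.

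The genes whose levels followed each ligand most closely were sought among 13290 genes with a mean of at least 1 CPM, by Pearson's r of log2(CPM + 1) over the 8 libraries. The libraries come from 4 lines, so these values describe the lines and carry no test. IL1A was closest to PHLDB2 (r = 0.993), ARF1 (0.990) and KIF3C (0.989). IL1B was closest to C1orf116 (r = 0.994), TFG (0.994) and TMCC3 (0.991). IL1RN followed MED10 (r = 0.996), NANS (0.994) and DCAF15 (0.991), IL18 followed KLHDC2 (0.989), TAGLN (0.975) and TMEM42 (0.951), and IL33 followed RDH16 (0.997), NCOA7 (0.980) and KSR1 (0.978).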

How the data were processed

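Poly A+ RNA was sequenced as paired-end reads from 2 biological replicates of each of the 4 lines. Trimming with Trimmomatic, alignment to hg19 (GRCh37) with STAR and estimation of expected counts per gene with RSEM on GENCODE v19 were done by the authors. The deposited expected counts are not normalized, and 12.8% of them are not whole. Versions and the use of strand in counting are not given in the sources used here, so reads of overlapping antisense genes cannot be told apart.

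Counts were rounded. Samples were grouped by their labels. The edgeR 4.0.16 quasi-likelihood test in R 4.3.3 (robust, TMM scaling, filterByExpr, 1 coefficient per line, 8 libraries) was run on 18431 genes, with Benjamini-Hochberg adjustment over all of them. The filter asks for about 10 counts, or 0.118 CPM, in 2 libraries. TPM was computed from the counts with the length of the canonical transcript in GENCODE release 44 on GRCh37, which also gave symbols and coordinates. IKBKG, SOD2 and PECAM1 of the gene lists were not matched. The counting error at library totals of 69669970 to 107350344 is small beside the spread of replicates, except for genes under about 10 counts. Lower bounds use the mean of the higher line and 3 counts per library for the line at 0. The procedure was run on simulated data in which each gene had the same spread in every line. The spreads of the real lines differ, so that run cannot show how the p-values hold here.

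Alternatives were DESeq2 1.42.0, its type of size factors, no filter, a replicate block, only the 2 lines compared, the library assignment of the study's table, leaving out each library, and total counts for CPM. The replicate numbers did not pair the libraries. The 10 genes and the lists were chosen with earlier results of these data known. Named genes were the 10; in the signalling, processing and target lists, the 2 largest changes each way among called genes in each comparison with M1; and for 5 ligands the 3 genes with the highest correlation. Summaries and plots used Python 3.11.15, pandas 2.3.3, numpy 2.4.6 and matplotlib 3.10.9.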

Additional observations from a re-analysis of the deposited data

How the results depend on the processing

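The replicates are separate samples of 1 line, and p-values measure only the spread of libraries within lines. That spread was estimated from all 8 libraries together, so a call between 2 lines also depends on the libraries of the other lines. With 2 libraries a line, a single library can decide a call, and genes under about 10 counts carry large counting errors. The numbers of the 9 tested genes called moved as follows. The share of all tested genes called was taken in the main fit only. Counts under other settings, here and for the gene lists, thus have no background. Whether they follow a change over all genes was not tested. In M2 against M1, the number was 0, or 2 with DESeq2, 3 without the filter on low counts and 0 to 2 with 1 library left out. In M3 against M1 it was 5, or 2 with only the 2 lines compared and 3 with the study's library assignment. In M3 against M2 it was 4, or 2 with that assignment and 1 to 5 with 1 library left out. In M4 against M2 it was 6, or 3 to 7 with 1 library left out. In M4 against M3 it was 5, or 3 with that assignment and 1 to 6 with 1 library left out. Some of these fits hold fewer samples or, without the filter, more genes. The spread taken over all lines also includes M2, whose coefficient of variation was 0.0574, against 0.271 to 0.377 in the other lines. Without either M2 library, the M4 changes against M3 stayed at 3.11 for IL1RN and -2.17 for IL1RAP, and neither was called. The causes were not tested.

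The replicate numbers did not pair the libraries: the correlations of same-numbered deviations between lines ran from -0.02 to 0.12. When the replicate number was added as a block, the numbers called were 0 in M2, 5 in M3 and 6 in M4 against M1, 4 in M3 and 7 in M4 against M2, and 5 in M4 against M3. Under the block, the uncalled changes of IL1RN in M3 against M2 (-0.0143) and of IL1RAP in M4 against M2 (-0.00921) turned sign.

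Only changes that were not called turned sign elsewhere. With the study's library assignment these were, in M2 against M1, IL1A (-0.35), IL1RN (-0.70), IL1R1 (0.18) and IL36RN (0.23), and in M4 against M2, IL1RAP (-0.0634). With 1 library left out, the ranges that crossed 0 in M2 against M1 were -0.62 to 0.34 for IL1B, -1.10 to 0.78 for IL1R2, -0.11 to 1.55 for IL1RAP and -1.58 to 0.32 for IL36RN. In M3 against M1 they were -0.46 to 1.40 for IL1R2, -1.91 to 1.67 for IL36RN and -0.59 to 0.64 for IL18. In M4 against M1 they were -0.51 to 1.36 for IL1R2, -0.0851 to 1.55 for IL1RAP and -0.19 to 0.64 for IL18. In M3 against M2 they were -0.43 to 0.51 for IL1RN and -1.50 to 2.34 for IL36RN. In M4 against M2 the range was -0.0915 to 0.126 for IL1RAP. In M4 against M3 they were -0.33 to 0.29 for IL1R2, -0.49 to 0.75 for IL18 and -0.00979 to 0.37 for IL33.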
